A study of Mus musculus with 6 samples.

Results

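Transcript levels of 9 Sox family transcription factors were followed in haematopoietic stem cells (HSC) sorted by the chemokine receptor CCR2. The members were chosen by symbol, with results of these arrays already known, and are 9 of the 22180 genes with a probe set of their own on the array. They are Sox4, Sox11 and Sox12 of group C, Sox5, Sox6 and Sox13 of group D, and Sox7, Sox17 and Sox18 of group F. The groups compared were 3 pools of CCR2-positive HSC and 3 pools of CCR2-negative HSC, each sorted from the marrow of 20 pooled C57BL/6J mice. No genotype, treatment or age is given for either group, and 5 ng of total RNA per pool was amplified before hybridisation. The values are log2 array values, a difference is the CCR2-positive mean minus the CCR2-negative mean, and its standard error comes from a limma fit over all genes.

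Sox proteins bind the minor groove of DNA through a high mobility group (HMG) box and bend it, usually next to a partner factor. Group C factors act in progenitor cells of many tissues, and Sox4 is needed for B lymphocyte development. Group D factors lack an activation domain and pair through a coiled coil. Group F factors belong to endothelium and to the first blood cells that form from it, and Sox17 maintains fetal and neonatal stem cells.

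The members were selected on this same contrast, so their differences are described and not tested. With limma, an adjusted p of 0.05 over all genes was reached by 0% of the 22180 genes and by 0 of the 9 members. An unadjusted p under 0.05 was found for 2716 genes (12.2%), with 6.61% lower and 5.63% higher in CCR2-positive pools. This balance of 1467 lower to 1249 higher genes turned to 1227 to 1463 after a second quantile normalization, and was 1621 to 1027 with median centring. Of the members, 1 was lower (Sox4) and 0 were higher on that rule. Sox17 also met it, as higher, after a second quantile normalization or with array weights, and Sox12 with array weights or without CCR2-positive replicate 3. Both missed it in the reported fit and in all other settings tried, and for members this rule describes and does not test. Groups whose pools lay apart were counted for 1 lower member, beside 7.88% of all genes, and for 3 higher members, beside 10.8% of all genes.

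Sox4 had the largest difference of the 9 members, and the promoter of its gene is shown beside those of the other group C members because these are its nearest relatives. Sox4 is a gene without introns on the minus strand, at chr13:28948919-28953699 of GRCm38.p6 in RefSeq, and spans 4781 bases. The 250 bases before the annotated start are given 5′ to 3′ from RefSeq, at chr13:28953700-28953949 for Sox4, chr12:27342719-27342968 for Sox11 and chr2:152398047-152398296 for Sox12, all on the minus strand. Capitals mark the CCAAT box, read as CCAAT or as its reverse complement ATTGG.
Sox4: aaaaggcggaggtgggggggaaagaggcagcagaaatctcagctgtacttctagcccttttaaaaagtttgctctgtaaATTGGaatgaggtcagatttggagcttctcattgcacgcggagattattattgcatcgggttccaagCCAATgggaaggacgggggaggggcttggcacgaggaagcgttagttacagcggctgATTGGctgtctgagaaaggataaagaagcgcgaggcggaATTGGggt
Sox11: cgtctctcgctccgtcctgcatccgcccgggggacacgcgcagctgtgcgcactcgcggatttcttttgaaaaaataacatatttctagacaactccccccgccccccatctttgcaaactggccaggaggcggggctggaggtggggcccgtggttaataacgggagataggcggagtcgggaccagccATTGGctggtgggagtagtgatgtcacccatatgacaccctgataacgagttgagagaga
Sox12: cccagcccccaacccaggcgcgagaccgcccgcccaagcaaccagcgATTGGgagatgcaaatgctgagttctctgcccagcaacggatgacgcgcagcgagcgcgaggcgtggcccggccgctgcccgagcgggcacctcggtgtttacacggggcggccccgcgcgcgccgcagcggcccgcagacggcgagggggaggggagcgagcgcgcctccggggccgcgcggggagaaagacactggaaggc

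The Sox4 window held 4 copies of the CCAAT box, whose first bases lie 171, 104, 47 and 8 bases before the start. At least 1 copy was found in 33.8% of the 32851 windows of this length in the RefSeq table, and at least 4 in 0.84%. Sox11 had 1 copy, 60 bases before its start, and Sox12 had 1 copy, 203 bases before its start. The GC box GGGCGG, searched on both strands and present in 32.7% of all windows, occurred 0 times for Sox4, 2 times for Sox11 and 3 times for Sox12. GC content was 50.8% for Sox4, 58.0% for Sox11 and 74.4% for Sox12, with a median of 52.4% over all windows. The Sox core ACAAT (27.7% of windows), the TATA box TATAAA (12.4%) and the GATA core AGATAA (9.99%), on both strands, matched none of the 3 windows. These are matches of letters in a short window, and they do not show binding. Of the 9 members, 6 had a promoter among these windows, and Sox7, Sox17 and Sox18 had none. Sox5, Sox6 and Sox13 are not printed. Sox5 and Sox13 had 0 copies of the CCAAT box. Among the 6 starts of Sox6, a window held 3 copies, another held 1 copy and the others held 0. At least 3 copies were found in 2.79% of all windows.

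Among group C members, Sox4 was lower in CCR2-positive pools. Its log2 value was 8.41, 8.29 and 8.34 in CCR2-positive replicates 1, 2 and 3, against 9.25, 9.03 and 9.01 in CCR2-negative replicates 1, 2 and 3. The groups did not overlap, and 0.59 separated the nearest pools, CCR2-positive replicate 1 and CCR2-negative replicate 3. The means were 8.35 ± 0.06 in CCR2-positive and 9.10 ± 0.14 in CCR2-negative pools (SD, n = 3 each), a difference of -0.75 ± 0.11 or 1.68-fold. The spread between pools was 0.06 for Sox4 in CCR2-positive pools, where the median gene had 0.15, and 0.14 in CCR2-negative pools, where the median gene had 0.13. A lower difference than that of Sox4 was found for 136 of all genes, or 0.61%. In sorted pools, fewer cells with the transcript and less transcript per cell cannot be told apart.

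**Figure D1:**
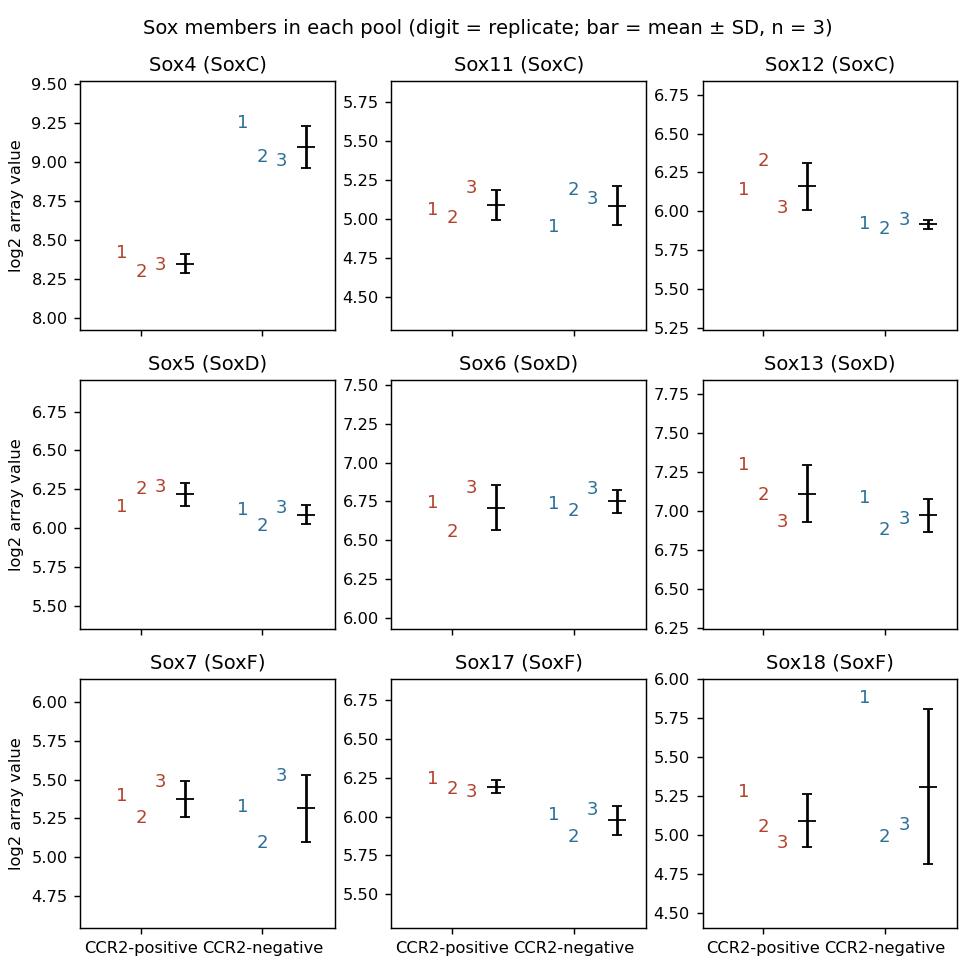
Log2 array values of the 9 members in each pool, with CCR2-positive pools on the left and CCR2-negative pools on the right of each panel. Digits are replicate numbers, and bars give the mean and SD (n = 3). All panels span the same log2 height. Sox4 has its CCR2-positive pools at 8.29 to 8.41 and its CCR2-negative pools at 9.01 to 9.25, and Sox18 has CCR2-negative replicate 1 alone at 5.88.

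Sox4 was read by 2 probe sets, while each of the other 8 members had 1. The second Sox4 probe set had 7.18, 7.05 and 7.33 in CCR2-positive replicates 1, 2 and 3, against 7.83, 7.77 and 7.62 in CCR2-negative replicates 1, 2 and 3. These groups did not overlap either, and the difference was -0.55, or 1.46-fold, with a standard error over the pools of 0.10. Across the 6 arrays the probe sets had r = 0.956, a description of 2 readings of the same RNA. Where on the transcript each probe set lies is not given in the sources used here.

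**Figure D2:**
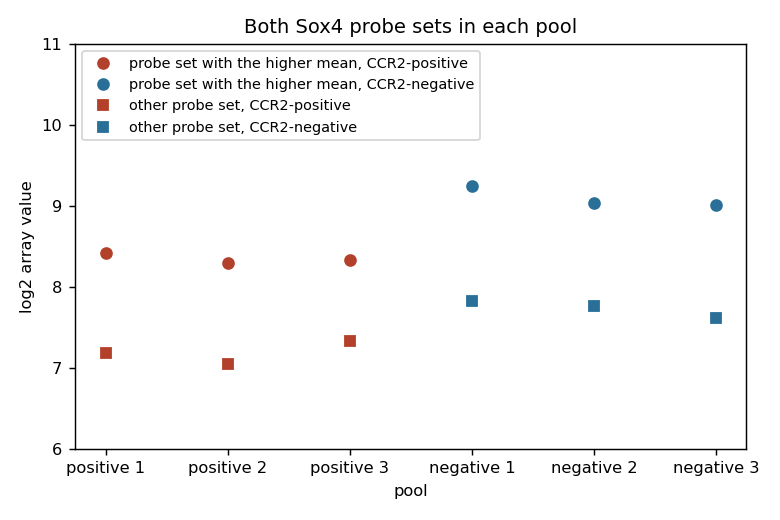
Log2 array value (vertical axis) of both Sox4 probe sets in each of the 6 pools (horizontal axis), circles for the probe set with the higher mean and squares for the other. In both, every CCR2-positive pool lies below every CCR2-negative pool, with differences of -0.75 and -0.55 on the log2 scale.

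For the other group C factors the CCR2-positive pools were not the lower ones. Sox12, which overlaps in function with Sox4 and Sox11 in the mouse embryo, had 6.14, 6.32 and 6.02 in CCR2-positive replicates 1, 2 and 3, against 5.92, 5.89 and 5.94 in CCR2-negative replicates 1, 2 and 3. The CCR2-positive pools were all the higher ones, with CCR2-positive replicate 3 and CCR2-negative replicate 3 only 0.08 apart. The difference was 0.24 ± 0.11, with a 95% interval of -0.01 to 0.50. Sox11, a factor of developing neurons, had 5.06, 5.01 and 5.20 in CCR2-positive replicates 1, 2 and 3, against 4.95, 5.18 and 5.13 in CCR2-negative replicates 1, 2 and 3. The groups overlapped, and the difference was 0.00 ± 0.11 (95% interval -0.25 to 0.25). It turned negative under each of the 3 other scalings tried (-0.07 to -0.02).

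The table holds no detection calls, so the members were set beside 1105 olfactory receptor genes, which marrow cells are not known to use. Probe sets differ in affinity, and such a level orders no amounts of RNA between genes. The 95th percentile of the receptors was 5.91, a value that 52.5% of all genes do not exceed, and 6 of the 9 members had a higher mean over the 6 arrays. Sox4 (8.72), Sox13 (7.04) and Sox6 (6.73) lay clear of that value, and Sox5 (6.15), Sox17 (6.08) and Sox12 (6.04) lay just above it. Sox7 (5.35), Sox18 (5.20) and Sox11 (5.09) lay below it. The highest receptor stood at 10.7, above every member, so a level over the 95th percentile does not show that a gene is expressed. Sox4 exceeded 99.8% of the receptors, Sox13 98.3% and Sox6 97.9%.

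Group D members had small differences, of 0.14 at most in the log2 values. Sox6, which in mice promotes red cell maturation and silences embryonic globin, had 6.74, 6.55 and 6.83 in CCR2-positive replicates 1, 2 and 3, against 6.74, 6.69 and 6.83 in CCR2-negative replicates 1, 2 and 3. The groups overlapped, with CCR2-positive replicate 2 the lowest pool. The difference was -0.04 ± 0.11 (95% interval -0.30 to 0.21), and it turned to 0.02 after a second quantile normalization. Sox13, known in mice from gamma-delta T cells, had 7.30, 7.11 and 6.93 in CCR2-positive replicates 1, 2 and 3, against 7.09, 6.88 and 6.95 in CCR2-negative replicates 1, 2 and 3. Its groups overlapped and its difference was 0.14 ± 0.12, which was 0.05 when CCR2-positive replicate 1 was left out, 0.23 when CCR2-positive replicate 3 was, and 0.09 when CCR2-negative replicate 2 was. Sox5, which acts with Sox6 in cartilage, had 6.13, 6.25 and 6.26 in CCR2-positive replicates 1, 2 and 3, against 6.12, 6.02 and 6.13 in CCR2-negative replicates 1, 2 and 3. The groups were apart by less than 0.01, between CCR2-positive replicate 1 and CCR2-negative replicate 3, and the difference was 0.13 ± 0.10.

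Group F held the remaining member without overlap. Sox17 had 6.24, 6.18 and 6.16 in CCR2-positive replicates 1, 2 and 3, against 6.01, 5.87 and 6.04 in CCR2-negative replicates 1, 2 and 3. All CCR2-positive pools were the higher ones, by 0.11 between the nearest pools. The difference was 0.22 ± 0.10, or 1.16-fold, with a 95% interval of -0.01 to 0.45. Sox7, which acts in early blood and vessel formation, had 5.40, 5.25 and 5.48 in CCR2-positive replicates 1, 2 and 3, against 5.33, 5.09 and 5.53 in CCR2-negative replicates 1, 2 and 3. Its groups overlapped, and its difference of 0.06 ± 0.13 turned to -0.01 with cyclic loess. Sox18, a factor of lymphatic and blood vessels, had 5.28, 5.05 and 4.95 in CCR2-positive replicates 1, 2 and 3, against 5.88, 4.99 and 5.06 in CCR2-negative replicates 1, 2 and 3. CCR2-negative replicate 1 alone stood high, and the difference of -0.22 ± 0.23 turned to 0.07 without that pool.

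**Figure D3:**
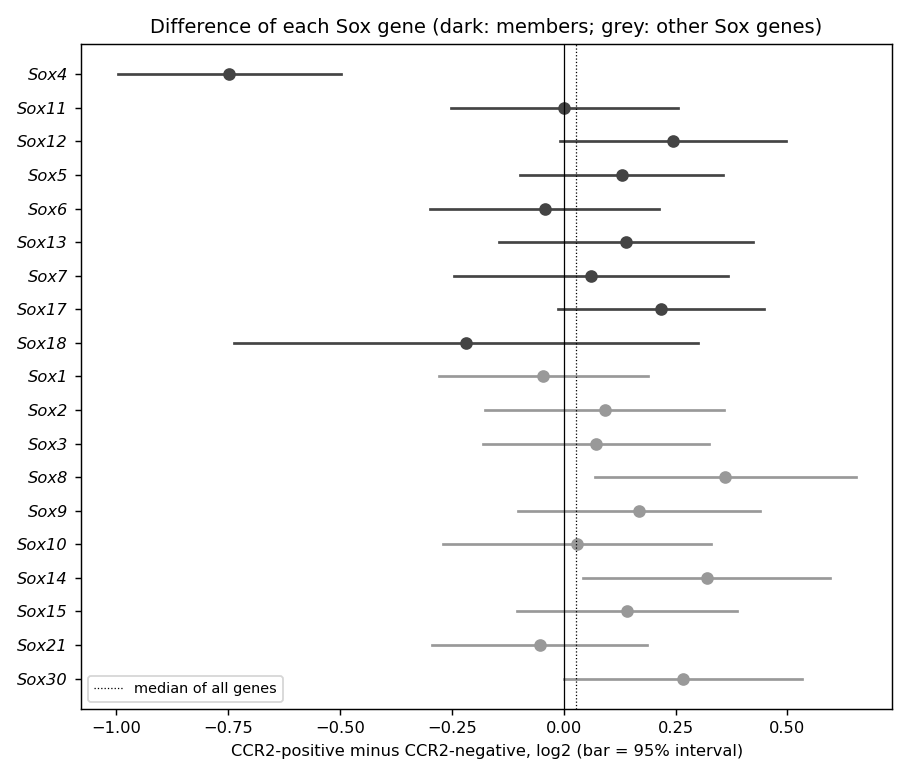
Difference between CCR2-positive and CCR2-negative pools on the log2 scale (horizontal axis) for the 9 members in dark and 10 other Sox genes in grey, with 95% intervals from the limma fit. The dotted line is the median of all genes, 0.03. Sox4 is the single gene shown with an interval wholly below 0, at -0.75, and the other members lie between -0.22 and 0.24.

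Across the 9 members 3 had a lower and 6 a higher mean in CCR2-positive pools, where 44.0% of all genes had a lower one, a split that became 5 lower and 4 higher with cyclic loess and 4 lower and 5 higher with median centring. The median difference was 0.06, or 0.10 over the 8 members without Sox4, beside 0.03 over all 22180 genes. The median of the 9 turned to -0.01 with cyclic loess and was 0.03 after a second quantile normalization, and that of the 8 was 0.06 to 0.09 under the other scalings. The family was completed with 10 Sox genes that are not members: Sox1, Sox2 and Sox3 of neural progenitors, the neural crest and gonadal factors Sox8, Sox9 and Sox10, and Sox14, Sox15, Sox21 and Sox30. Of these, 8 had higher and 2 lower means in CCR2-positive pools, with a median of 0.12, and 0 passed an adjusted p of 0.05. At an unadjusted p under 0.05 there were 2, both higher, beside 5.63% of all genes. These were Sox8 (5.89 ± 0.10 in CCR2-positive and 5.53 ± 0.20 in CCR2-negative pools, SD, n = 3 each) and Sox14 (7.62 ± 0.09 in CCR2-positive and 7.30 ± 0.18 in CCR2-negative pools). Only 4 of the 10 had a mean above the 95th percentile of the olfactory receptors, with Sox14 (7.46) among them and Sox8 (5.71) below it. Sox30 differed by 0.27 ± 0.12, Sox9 by 0.17 ± 0.12 and Sox15 by 0.14 ± 0.11. Sox2, Sox3 and Sox10 had differences of 0.09, 0.07 and 0.03, and Sox1 and Sox21 of -0.05 each.

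The pattern of Sox4 over the 6 arrays was set against 10199 genes that were at or above the median level and had a RefSeq entry. The 5 most like it were Prodh, a mitochondrial proline dehydrogenase gene (r = 0.993), Ppp1r12a, which encodes a targeting subunit of myosin phosphatase (r = 0.993), Snx10, a sorting nexin gene (r = 0.992), Ptpn22, a tyrosine phosphatase gene of immune cells (r = 0.989), and Ripor2 (r = 0.989). Their differences were -0.45 ± 0.10, -0.40 ± 0.10, -0.38 ± 0.10, -0.52 ± 0.11 and -0.55 ± 0.11 in that order, each smaller in size than that of Sox4. The 3 least like it were Cux2, a homeobox gene (r = -0.994), ND2, a mitochondrially encoded subunit of complex I (r = -0.989), and Bglap, which encodes osteocalcin (r = -0.981). With 6 points that share their arrays and the split into groups, such values describe the pools and are not tested.

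**Figure D4:**
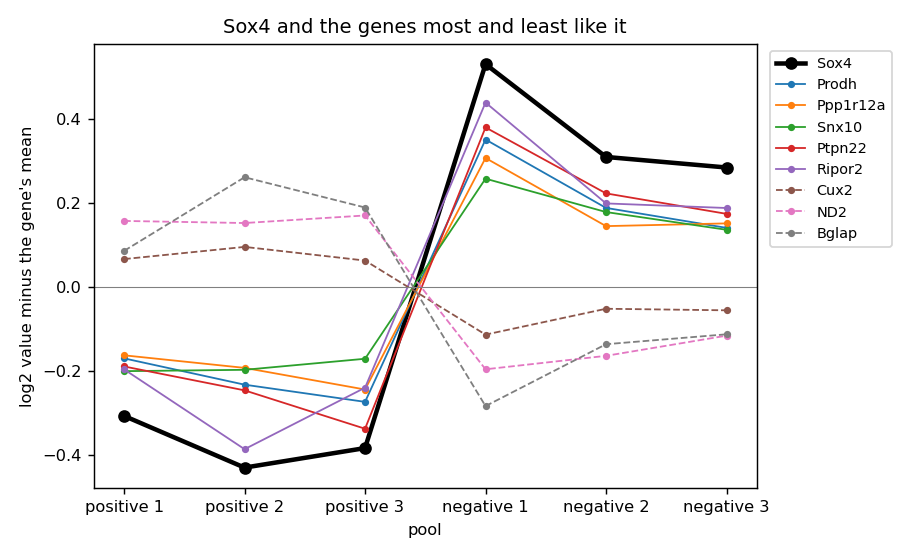
Log2 value minus the gene's own mean over the 6 arrays (vertical axis) for Sox4 (thick black), the 5 genes most like it (solid lines) and the 3 least like it (dashed lines) in each pool (horizontal axis). Pools have no order, and lines join the readings of a gene. The 5 like genes lie below 0 in every CCR2-positive pool and above 0 in every CCR2-negative pool, with a smaller span than Sox4.

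Likeness was also taken for the 5 other members whose mean exceeded the 95th percentile of the olfactory receptors. Sox12 ran with F13a1, a coagulation factor gene of monocytes (r = 0.992, difference 0.66 ± 0.18), Rrm1, a ribonucleotide reductase subunit gene (r = 0.988, 0.20 ± 0.11), and Pdia3, a protein disulfide isomerase gene (r = 0.986, 0.18 ± 0.11). Sox17 ran with Asph (r = 0.991), Kcng1 (r = 0.991) and Vtcn1 (r = 0.990). Sox6 ran with Prdm16, a transcription factor gene of stem cells (r = 0.974), Panx1 (r = 0.971) and Zfp113 (r = 0.970), all lowest in CCR2-positive replicate 2. Sox13 ran with Irs2 (r = 0.995), G6pc3 (r = 0.991) and Rhob (r = 0.984), and Sox5 with Rab22a (r = 0.991), Cdr2 (r = 0.988) and Tusc1 (r = 0.987). Among the members themselves, Sox4 had r = -0.82 with Sox17, -0.81 with Sox12 and -0.76 with Sox5, the members whose pools did not overlap in the other direction.

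On the chromosome, the nearest measured genes on either side of Sox4 are long noncoding RNA genes. The lncRNA 2610307P16Rik, 63.5 kb away at lower coordinates, differed by -0.15 ± 0.10 with pools that did not overlap (6.37 to 6.43 in CCR2-positive and 6.49 to 6.60 in CCR2-negative pools). A330102I10Rik, 60.7 kb away on the other side, differed by 0.05 ± 0.10. Sox18 lies on chromosome 2 between Prpf6, a splicing factor gene, and Tcea2, a transcription elongation factor gene, which is 8.66 kb away. Tcea2 had 5.87, 6.03 and 6.27 in CCR2-positive replicates 1, 2 and 3, against 6.99, 6.38 and 6.80 in CCR2-negative replicates 1, 2 and 3, a difference of -0.67 ± 0.17, and Prpf6 differed by -0.31 ± 0.13. The pools of both neighbours lay apart between the groups, while those of Sox18 overlapped. These 2 were singled out after their values were seen, and the neighbours of the other 7 members differed by -0.23 to 0.21. Among the latter, A730082K24Rik beside Sox6 (0.21), 4930578I06Rik beside Sox7 (0.14) and Gm9866 beside Sox11 (0.18) had CCR2-positive pools wholly above the CCR2-negative ones. Of all genes, 7.88% had pools apart as lower and 10.8% as higher.

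Pathway lists, chosen with earlier results of these arrays known, hold factors that act with Sox proteins or lie in pathways tied to them. No member of any list passed an adjusted p of 0.05 over all genes. The list counts below stand beside these shares of all 22180 genes: 44.0% had a lower mean in CCR2-positive pools. At an unadjusted p under 0.05, 6.61% were lower and 5.63% higher. Of 13 blood and endothelial regulators that act beside group F factors, 11 had lower and 2 higher means in CCR2-positive pools, with a median of -0.19, and 4 were lower at an unadjusted p under 0.05. These 4 were Tek, the angiopoietin receptor (-0.82 ± 0.16), Erg, an ETS factor (-0.67 ± 0.27), Lmo2, a bridging factor of the stem cell complex (-0.45 ± 0.13), and Lyl1, a basic helix-loop-helix factor (-0.40 ± 0.15). The groups did not overlap for Tek and Lmo2 but did for Erg and Lyl1. For Erg, CCR2-positive replicate 2 stood lowest at 7.705, with an SD of 0.61 over the CCR2-positive pools.

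TGF-beta signalling induces Sox4 in several cell types. Of 10 receptor and SMAD genes 7 were lower and 3 higher, with a median of -0.22 that was -0.24 to -0.15 under the other scalings. Smad5, a transducer of BMP signals, was the single one at an unadjusted p under 0.05 (6.14 ± 0.08 in CCR2-positive and 6.50 ± 0.19 in CCR2-negative pools, SD, n = 3 each). Smad3 and Tgfbr2, which carry the TGF-beta signal, differed by -0.27 ± 0.14 and -0.27 ± 0.12, and the coreceptor gene Tgfbr3 by -0.22 ± 0.12. Of 9 measured genes of the TCF/LEF factors and beta-catenin pathway, relatives and partners of Sox proteins, 7 were higher and 2 lower. Their median was 0.03, and each of the other scalings gave 6 higher and 3 lower. Tcf7l2, an HMG-box factor, differed by -0.35 ± 0.15 and was the single one at an unadjusted p under 0.05. The Wnt receptor gene Fzd6 differed by -0.40 ± 0.18, the coreceptor gene Lrp6 by 0.14 ± 0.14 and the target gene Axin2 by 0.14 ± 0.16.

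Early B lymphoid genes, of interest because Sox4 is needed in that lineage, were 8 higher and 3 lower of 11. Their median was 0.10, and 0 had an unadjusted p under 0.05. The split was 7 to 4 after a second quantile normalization or with cyclic loess, and 6 to 5 with median centring. Pax5 differed by 0.24 ± 0.13, Ebf1 by 0.25 ± 0.14 and the surrogate light chain gene Vpreb1 by 0.17 ± 0.12, while Cd79b of the B cell receptor differed by -0.25 ± 0.18. Only 3 of the 11 had a mean above the 95th percentile of the olfactory receptors. Of 10 erythroid factors that act with Sox6, 7 were higher and 3 lower, with a median of 0.07. That split was 9 to 1 after a second quantile normalization, 8 to 2 with cyclic loess and 6 to 4 with median centring. Klf1, which drives red cell genes, had 9.37 ± 0.27 in CCR2-positive and 8.65 ± 0.48 in CCR2-negative pools (SD, n = 3 each) and was the single one at an unadjusted p under 0.05. Gata1 differed by 0.44 ± 0.20, Zfpm1, its cofactor, by 0.15 ± 0.11, the deacetylase gene Hdac1 by 0.12 ± 0.13 and the globin repressor gene Bcl11a by 0.02.

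**Figure D5:**
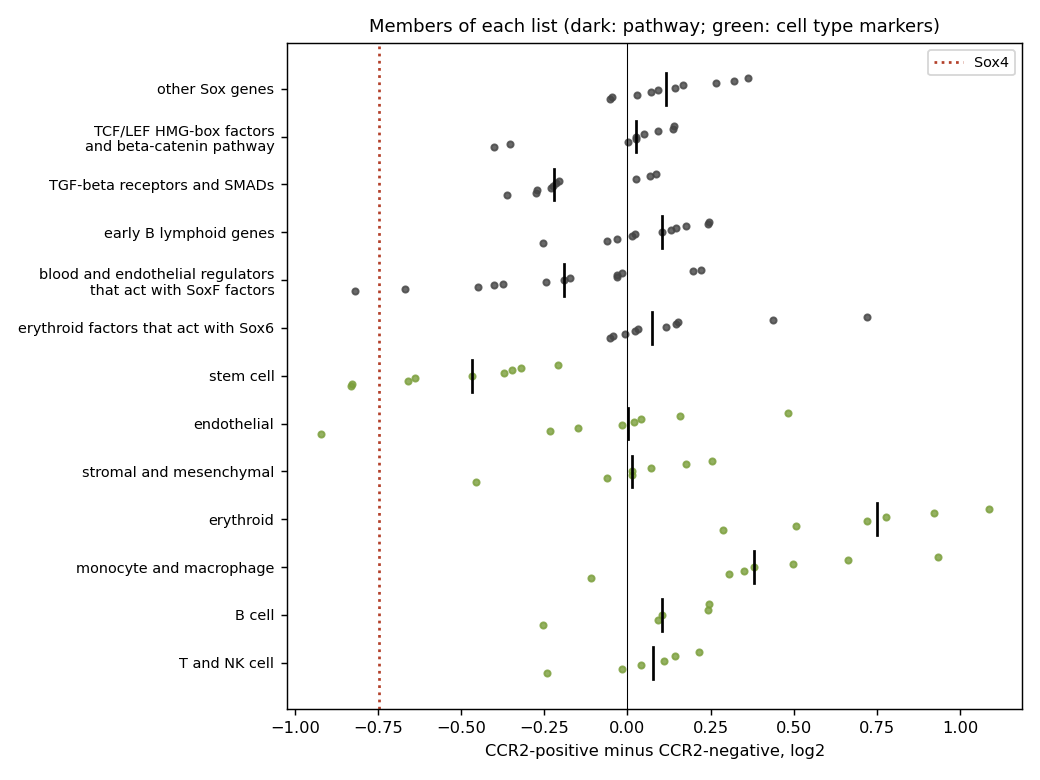
Difference between CCR2-positive and CCR2-negative pools on the log2 scale (horizontal axis) for each gene of the pathway lists (dark) and the cell type marker lists (green). Short bars are list medians, and the dotted line is Sox4 at -0.75. Stem cell markers lie wholly below 0 and erythroid markers wholly above it.

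Levels of several marker lists ran apart with the sort in the same arrays. The 9 measured stem cell markers were all lower in CCR2-positive pools, with a median of -0.47, Kit at -0.32 ± 0.13, Meis1 at -0.64 ± 0.17 and Cd34 at -0.83 ± 0.17. Their mean level was 7.41 to 7.73 in CCR2-positive and 8.01 to 8.26 in CCR2-negative pools. The 6 measured erythroid markers were all higher, with a median of 0.75 and mean levels of 8.10 to 8.64 in CCR2-positive and 7.26 to 7.80 in CCR2-negative pools, among them Aqp1 (0.78 ± 0.15) and Rhag (1.09 ± 0.33). Of 7 monocyte and macrophage markers 6 were higher, with a median of 0.38 and mean levels of 5.89 to 6.02 in CCR2-positive and 5.44 to 5.60 in CCR2-negative pools. Only 3 of the 7, Cd68, Lgals3 and F13a1, had a mean above the 95th percentile of the olfactory receptors. In that list Cd68 differed by -0.11 ± 0.24, Lgals3 by 0.50 ± 0.11 and F13a1 by 0.66 ± 0.18. Their part in the Sox4 difference was not tested.

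Endothelial markers, which bear on the group F factors, were 4 higher and 4 lower of 8, with a median of 0.00 that was -0.06 to -0.02 under the other scalings. Mean levels were 5.92 to 6.07 in CCR2-positive and 6.06 to 6.11 in CCR2-negative pools. Emcn, a sialomucin that stem cells also carry, differed by -0.92 ± 0.20, Pecam1 by -0.23 ± 0.17, Vwf by 0.02 ± 0.19 and Plvap, a gene of fenestrated vessels, by 0.48 ± 0.13. Of the list, 1 was higher (Plvap) and 1 lower (Emcn) at an unadjusted p under 0.05. Stromal markers were 5 higher and 2 lower of 7, with a median of 0.01 that turned to -0.01 with median centring. Their mean levels were 5.32 to 5.54 in CCR2-positive and 5.37 to 5.43 in CCR2-negative pools, with Pdgfrb at 0.01 ± 0.15, Col1a1 at 0.07 ± 0.14 and Col1a2 at -0.45 ± 0.11. B cell markers (4 of 5 higher, median 0.10) had mean levels of 5.37 to 5.58 in CCR2-positive and 5.35 to 5.42 in CCR2-negative pools. T and NK cell markers (4 of 6 higher, median 0.08, or 3 of 6 and 0.00 with cyclic loess) had 5.33 to 5.51 in CCR2-positive and 5.31 to 5.41 in CCR2-negative pools, with Nkg7 at -0.24 ± 0.14, Ncr1 at 0.22 ± 0.11 and Cd3e at 0.11 ± 0.12.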

How the data were processed

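RNA of 6 pools, each from 20 mice, was measured on whole-transcript arrays. The authors deposited 1 table of log2 values for 41345 probe sets, made with RMA per the submitters' processing notes, and its version is not given in the sources used here. RMA equalises the arrays, so changes are relative to the other genes. Their log2 scale was read from the range of the deposited values, 2.39 to 13.3. Array medians were 5.48 to 5.58. Arrays correlated at r = 0.966 to 0.974 within CCR2-positive, 0.975 to 0.983 within CCR2-negative and 0.960 to 0.977 between the groups.

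The platform annotation gave the gene names: 23521 probe sets had 1 gene, 1814 several (left unnamed) and 16010 none. Of a gene's probe sets (1082 genes had several), the one with the highest mean was used. CCR2-positive and CCR2-negative pools were compared with limma 3.58.1 in R 4.3.3 (lmFit, eBayes, unpaired) over 22180 genes with Benjamini-Hochberg adjustment. The fit was tested on simulated data, with planted differences larger in size than that of any member. The number of arrays limits the precision, with a median standard error of 0.127. The labels call the pools biological replicates.

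The members and lists were chosen with earlier results of these data known. Named were all members, all other Sox genes, up to 4 genes per pathway list by unadjusted p, up to 3 per marker list by level, the chromosomal neighbours of the members, and the genes most and least like a member, without predicted genes, RIKEN clones and small RNAs. Named beyond that rule, after their values were seen, were Plvap and Bcl11a. Listed genes without a probe set of their own were not analysed here. Alternatives were filters on dim genes, other scalings, the replicate number as a block, trend and robust eBayes, array weights, the mean of probe sets, each pool left out, and, chosen after seeing the data, the other Sox4 probe set.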

Additional observations from a re-analysis of the deposited data

How the results depend on the processing

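The filters, the replicate block and the trend and robust fit cannot change a difference of group means. The Sox4 difference of -0.75 was -0.77 to -0.71 under the other scalings and -0.79 to -0.67 with 1 pool left out. As the Sox4 pools did not overlap, leaving out or weighting a pool could not change its sign. With the other Sox4 probe set, an alternative chosen after seeing the data, the difference was -0.55. Sox5 (0.11 to 0.15), Sox12 (0.22 to 0.25), Sox13 (0.12 to 0.21) and Sox17 (0.19 to 0.23) stayed positive under the other scalings. Each has 1 probe set, so the mean of probe sets left these differences unchanged. The pools of Sox5, Sox12 and Sox17 did not overlap, so leaving out or weighting a pool could not change their sign. Sox13, whose pools overlapped, was 0.05 to 0.23 with 1 pool left out. Members with differences close to 0 did not keep their sign. Sox11 turned to -0.039 after a second quantile normalization, -0.022 with median centring, -0.074 with cyclic loess and -0.0053 with array weights, and spanned -0.068 to 0.050 as each pool was left out. Sox6 turned to 0.019 after a second quantile normalization and spanned -0.11 to 0.036 as each pool was left out. Sox7 turned to -0.0065 with cyclic loess and spanned -0.049 to 0.17 as each pool was left out. Sox18 spanned -0.38 to 0.067 as each pool was left out, with the positive value without CCR2-negative replicate 1. Without genes under the median level, Sox7, Sox11 and Sox18 left the fit, and 1524 genes had an unadjusted p under 0.05 (1123 lower, 401 higher). Fewer genes were tested there, and their median difference was -0.033, beside 0.027 over all genes. With all genes kept, the count at an unadjusted p under 0.05 was 1921 to 3035 as each pool was left out. At an adjusted p of 0.05 the count was 0 to 2 as each pool was left out. The 2 genes, without CCR2-positive replicate 1, were Mcpt8 (2.70) and Gca (-1.55), named after their values were seen. Replicate numbers were not shown to pair the pools: same-numbered pools had r = 0.035 to 0.089 in their deviations from the group means, under the limit of 0.1, and 4 of 6 pools correlated best with their own number. With the replicate block 0 genes had an adjusted p under 0.05 and 2935 an unadjusted p under 0.05. The Sox4 difference, which the block cannot alter, was -0.75. The cause of the changes between settings was not tested. No signal over background is known, which limits what can be said of Sox7, Sox11 and Sox18. The same limit holds for Sox5 (6.15), Sox12 (6.04) and Sox17 (6.08), whose means lay just above the receptor 95th percentile of 5.91. CCR2-negative replicate 2 was below that value for Sox12 (5.89) and Sox17 (5.87).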
